A study of Mus musculus with 6 samples.

Results

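Type 1 effector lymphocytes are marked by the transcription factors T-bet and Eomes, by receptors for interleukin-12 (IL-12) and interleukin-18 (IL-18), by the cytokine interferon-γ (IFN-γ) and, in cytotoxic cells, by granules that carry granzymes and perforin. The 10 genes described here were taken by name from the gene tables of the series, which list 41195 genes: Tbx21, Eomes, Stat4, Il12rb2, Ifng, Il18r1, Il18rap, Nkg7, Gzma and Prf1. All 10 had at least 1 read in every library, and all 10 passed the filter on low counts. RNA-seq was done on γδ thymocytes, developing T cells that carry a γδ T cell receptor, enriched from the thymus with a magnetic kit. The first group was Rag1Cre-Nfatc1fl/fl, in which Cre recombinase made from the Rag1 locus acts in early thymocytes and removes a loxP-flanked exon of Nfatc1, which encodes the transcription factor NFATc1. The second group was the Nfatc1fl/fl control, with the same loxP-flanked allele and no Cre. Both had 3 libraries, from mice of 4 to 6 weeks. The comparison asked how the loss of NFATc1 alters the differentiation of γδ thymocytes. The labels do not say whether the libraries came from separate or pooled animals, and the p-values rest on the spread between libraries alone, which may be technical. Cre acts in all early thymocytes, so the γδ cells developed in a thymus in which other T cells had lost NFATc1 too.

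In γδ T cells the type 1 programme is one of several effector programmes that can be set in the thymus. T-bet and Eomes are related T-box factors that bind many effector genes. IL-12 signals through a receptor of the chains encoded by Il12rb1 and Il12rb2 to STAT4, and IL-18 signals through the chains encoded by Il18r1 and Il18rap to the adaptor MYD88. Perforin makes pores through which granzymes enter a target cell, and NKG7 is a granule membrane protein needed for full granule release.

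The libraries held 20734771 to 22638531 gene reads. Some library measures differed between the genotypes without overlap. Ribosomal protein genes took 12.4% to 17.4% of reads in Rag1Cre-Nfatc1fl/fl and 9.43% to 10.4% in the control, and mitochondrial genes took 5.75% to 6.42% in Rag1Cre-Nfatc1fl/fl and 7.41% to 10.6% in the control. The part of these differences in the results was not tested. Nfatc1 itself had 367, 437 and 310 CPM (read counts scaled to library size with TMM factors) in the Rag1Cre-Nfatc1fl/fl replicates 1, 2 and 3, against 197, 208 and 205 CPM in the Nfatc1fl/fl replicates. The tables count whole genes, so this level does not check the loss of the exon. Rag1Cre-Nfatc1fl/fl replicate 3 stood apart: its chi-square per degree of freedom against its own replicates was 59.3 and 66.1, while other pairs of replicates lay between 7.49 and 16.7. The 8 markers of γδ T cells summed to 3025 to 3103 CPM in Rag1Cre-Nfatc1fl/fl and to 3097 to 3286 CPM in the control. By the call rule given with the 10 genes, Trdc and Tcrg-C1 were lower (log2 fold changes of -0.80 and -0.65). The other 6 were not called: Cd247 at -0.46, Tcrg-C2 at -0.33, Cd3e at -0.15, Cd3g at 0.18, Tcrg-C4 at 0.25 and Cd3d at 0.56. The 8 macrophage markers summed to 56.5 to 299 CPM in Rag1Cre-Nfatc1fl/fl, with the highest value in replicate 3, and to 22.1 to 96.1 CPM in the control (two-sided exact permutation p = 0.3). Of the 10 markers of NK cells, the cells best known for this programme, Klra8, Klra4 and Ncam1 stayed under 1 CPM in every library. Itga2 was called higher (log2 fold change 1.21, edgeR adjusted p = 0.00993), but in only 1 of 6 fits without 1 library. The other 5 tested were not called: Klre1 at -0.52, Klrb1c at 0.26, Klrd1 at 0.33, Fcer1g at 0.57 and Tyrobp at 1.29. Ncr1, not tested, averaged 0.142 CPM in Rag1Cre-Nfatc1fl/fl and 0.920 CPM in the control. Tyrobp and Fcer1g were highest in Rag1Cre-Nfatc1fl/fl replicate 3, at 13.5 and 13.4 CPM. The 10 NK markers together summed to 35.3 to 51.3 CPM in Rag1Cre-Nfatc1fl/fl and to 21.6 to 30.9 CPM in the control (two-sided exact permutation p = 0.1, the smallest that 3 against 3 libraries allow). In such bulk samples, fewer cells of a type and less RNA per cell cannot be told apart.

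The 10 genes did not move in one direction. Tbx21 and the IL-18 receptor chain gene Il18rap rose in Rag1Cre-Nfatc1fl/fl γδ thymocytes. The IL-12 pathway genes Il12rb2 and Stat4 and the granule genes Nkg7, Gzma and Prf1 fell. Eomes, Ifng and Il18r1 did not pass the test. Genes were called from edgeR's quasi-likelihood test where the adjusted p was below 0.01 and the log2 fold change (log2FC) was beyond 0.5 in either direction. By this rule 7 of the 10 genes were called, where 9.98% of 13185 tested genes were called. The 2 that rose stand beside a share of 6.47% of tested genes called higher, and the 5 that fell beside 3.51% called lower. The median log2FC of the 10 genes was -0.75, against -0.0069 over all tested genes. In 8 of the 10 the values of the genotypes did not overlap, as was true of 46.7% of tested genes.

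**Figure D1:**
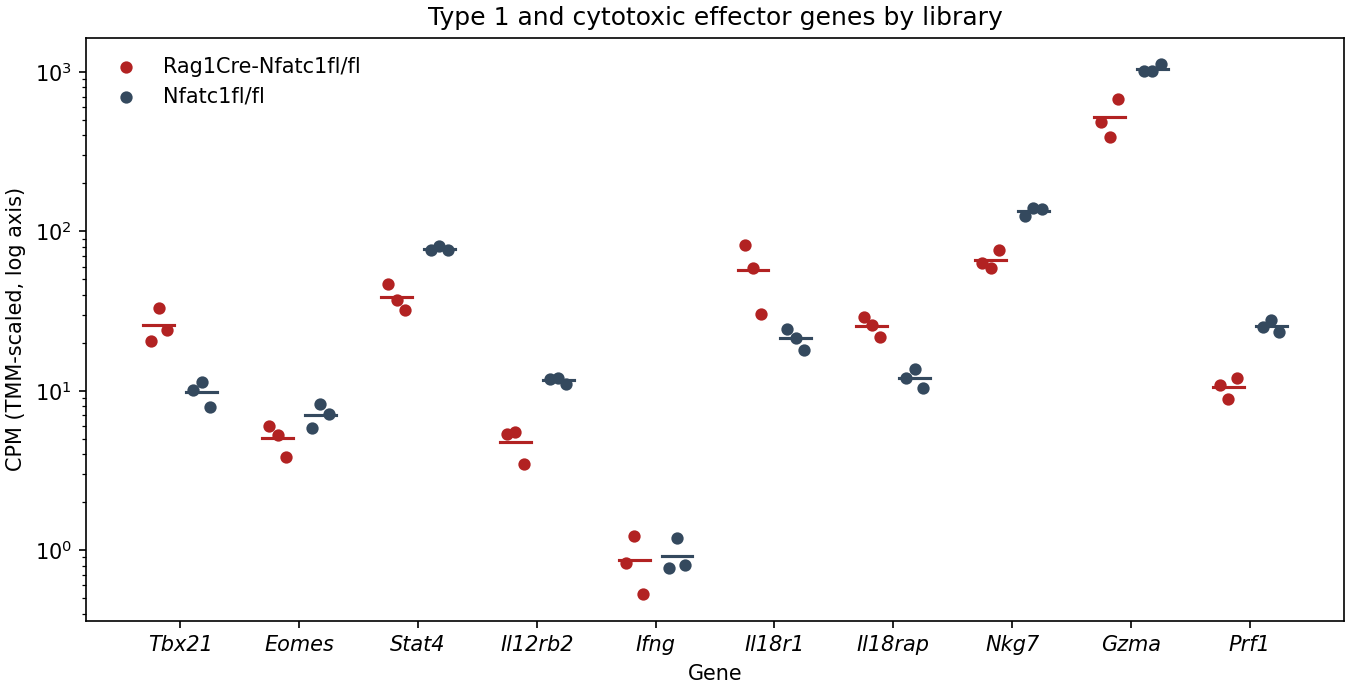
TMM-scaled CPM (log axis) of each of the 10 genes in the 3 Rag1Cre-Nfatc1fl/fl libraries (red, left) and the 3 Nfatc1fl/fl libraries (blue, right), with a bar at the mean. Tbx21, Il18r1 and Il18rap lie above the control without overlap, Stat4, Il12rb2, Nkg7, Gzma and Prf1 lie below it without overlap, and Eomes and Ifng overlap.

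Tbx21, which encodes T-bet, was the transcription factor gene among the 10 that rose. It had 20.6, 33.1 and 23.9 CPM in Rag1Cre-Nfatc1fl/fl replicates 1, 2 and 3, against 10.1, 11.4 and 7.88 CPM in the control replicates. Every Rag1Cre-Nfatc1fl/fl library was above every control library. The log2FC was 1.40 ± 0.207 (SE; edgeR adjusted p = 0.00285), which is 2.64-fold. The call was lost without control replicate 1 (adjusted p = 0.0185) and without control replicate 3 (adjusted p = 0.0164), with log2FCs of 1.42 and 1.27. The gene lies on the minus strand of chromosome 11, from 97098071 to 97115331 (GRCm38).

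Eomes, the other T-box gene, did not follow Tbx21. It had 5.97, 5.28 and 3.85 CPM in Rag1Cre-Nfatc1fl/fl, against 5.81, 8.27 and 7.17 CPM in the control. The ranges overlapped, and the log2FC was -0.49 with a 95% interval of -0.98 to 0.01 (edgeR adjusted p = 0.137). It was called under no alternative. The balance of both T-box genes, taken per transcript length as TPM (length-corrected reads, scaled to the same sum in each library), was computed after their values had been seen. The ratio of Tbx21 to Eomes TPM was 5.67, 10.3 and 10.2 in Rag1Cre-Nfatc1fl/fl, against 2.86, 2.31 and 1.70 in the control. The groups did not overlap (8.70 ± 2.63 against 2.29 ± 0.578, SD, n = 3 each; two-sided exact permutation p = 0.1).

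On the IL-12 side, the genes of both the inducible receptor chain and its transducer fell. Il12rb2, the inducible chain through which the receptor engages STAT4, had 5.32, 5.47 and 3.48 CPM in Rag1Cre-Nfatc1fl/fl, against 11.8, 12.0 and 11.0 CPM in the control. No Rag1Cre-Nfatc1fl/fl value came near the lowest control value. The log2FC was -1.28 ± 0.187 (SE; edgeR adjusted p = 0.00272). The call was lost without any one of the control replicates 1, 2 or 3 (adjusted p = 0.0168, 0.0157 and 0.0143). The gene overlaps Serbp1 on the other strand, a far more abundant gene with 51135 reads in Rag1Cre-Nfatc1fl/fl and 51857 in the control, and because the libraries were unstranded their reads cannot be told apart where they overlap. Serbp1 had a log2FC of 0.10 (adjusted p = 0.406). Il12rb1, the gene of the other chain, had 109, 108 and 94.5 CPM in Rag1Cre-Nfatc1fl/fl, against 83.8, 83.6 and 87.6 CPM in the control. Its log2FC was 0.29 (edgeR adjusted p = 0.0503), and it was not called. The ratio of Il12rb1 to Il12rb2 TPM, also computed after the values had been seen, was 19.3, 20.4 and 26.3 in Rag1Cre-Nfatc1fl/fl, against 6.80, 6.73 and 7.62 in the control.

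Stat4, which carries the IL-12 signal to the nucleus, had 46.5, 37.0 and 32.1 CPM in Rag1Cre-Nfatc1fl/fl, against 76.6, 81.4 and 75.9 CPM in the control. The control libraries lay close together and all lay above Rag1Cre-Nfatc1fl/fl. The log2FC was -1.02 ± 0.136 (SE; edgeR adjusted p = 0.00190). Between 73.5% and 78.8% of its reads were unique, so part of its count fits other places in the genome. With unique reads alone the gene stayed called. The call was lost without Rag1Cre-Nfatc1fl/fl replicate 2 (adjusted p = 0.0116) and without control replicates 1, 2 or 3 (adjusted p = 0.0122, 0.0123 and 0.0118), while the log2FC stayed between -1.17 and -0.89.

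The IL-18 side went the other way. Il18rap, the signalling chain of the receptor, had 28.9, 26.0 and 21.8 CPM in Rag1Cre-Nfatc1fl/fl, against 12.0, 13.6 and 10.4 CPM in the control. The groups did not overlap, and the log2FC was 1.09 ± 0.146 (SE; edgeR adjusted p = 0.00181). Without control replicate 1 or 3 the adjusted p was 0.0141 and 0.0122, and the call was lost.

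Il18r1, the ligand-binding chain, had 82.1, 58.7 and 30.5 CPM in Rag1Cre-Nfatc1fl/fl, against 24.5, 21.5 and 18.1 CPM in the control. All 3 Rag1Cre-Nfatc1fl/fl values were above the control, but replicate 3 was far below the other two. The log2FC was 1.42 ± 0.318 (SE; edgeR adjusted p = 0.0163), short of the threshold. Without Rag1Cre-Nfatc1fl/fl replicate 3 it was 1.73 and the gene was called (adjusted p = 5.4e-05). DESeq2 and the edgeR fit without a filter also called it. The ratio of Il18r1 to Il18rap TPM was 3.83, 3.03 and 1.83 in Rag1Cre-Nfatc1fl/fl, against 2.64, 2.13 and 2.23 in the control, with overlapping ranges (two-sided exact permutation p = 0.5).

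**Figure D2:**
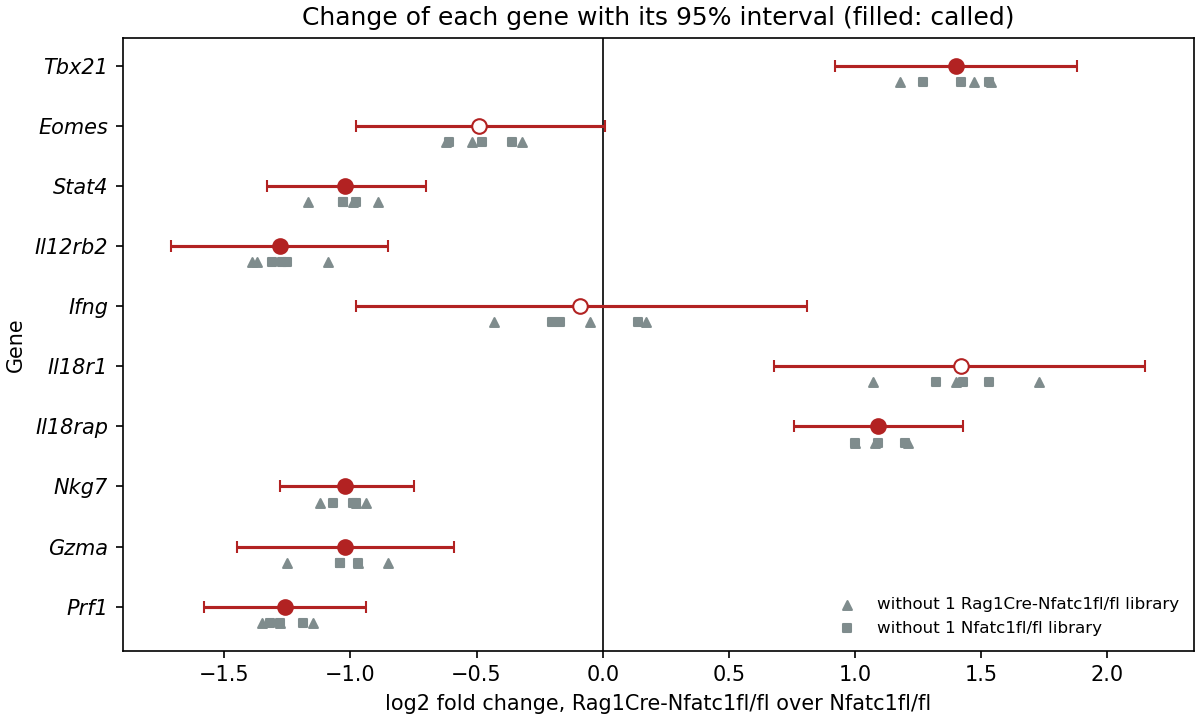
Log2FC of each gene, Rag1Cre-Nfatc1fl/fl over Nfatc1fl/fl, with its 95% interval (circles, filled where called); grey marks give the value without 1 Rag1Cre-Nfatc1fl/fl library (triangles) or 1 control library (squares). Only the marks of Ifng lie on both sides of 0, from -0.43 to 0.17, and those of Il18r1 spread from 1.07 to 1.73.

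Ifng, the signature type 1 cytokine, was near the limit of detection in these freshly isolated cells. It had 18, 27 and 10 reads in the Rag1Cre-Nfatc1fl/fl libraries, against 18, 27 and 18 reads in the control libraries. The groups overlapped. The log2FC was -0.09 with a 95% interval of -0.98 to 0.81 (edgeR adjusted p = 0.889), so a difference of either sign within that interval remains possible.

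The 3 granule genes among the 10 all fell. Gzma, which encodes granzyme A, was the most abundant of the 10 genes. It had 485, 392 and 678 CPM in Rag1Cre-Nfatc1fl/fl, against 1016, 1016 and 1118 CPM in the control. The highest Rag1Cre-Nfatc1fl/fl value was still below the lowest control value. The log2FC was -1.02 ± 0.187 (SE; edgeR adjusted p = 0.00710). The call was lost without Rag1Cre-Nfatc1fl/fl replicate 1 or 2 (adjusted p = 0.0236 and 0.0175) and without control replicate 1, 2 or 3 (adjusted p = 0.0291, 0.0276 and 0.0358), with log2FCs from -1.25 to -0.85 over all fits without 1 library. Gzma held 64.7%, 62.6% and 76.8% of the reads of the 10 genes in Rag1Cre-Nfatc1fl/fl, against 77.8%, 76.2% and 79.3% in the control.

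Prf1, which encodes perforin, had 10.9, 8.84 and 12.0 CPM in Rag1Cre-Nfatc1fl/fl, against 25.0, 27.9 and 23.2 CPM in the control. Its groups were well apart, with a log2FC of -1.26 ± 0.139 (SE; edgeR adjusted p = 0.000794). Nkg7 had 63.3, 59.1 and 76.2 CPM in Rag1Cre-Nfatc1fl/fl, against 124, 139.6 and 138 CPM in the control. Its log2FC was -1.02 ± 0.115 (SE; edgeR adjusted p = 0.000862). These were the 2 genes of the 10 that stayed called in each of the 6 fits without 1 library. The ratio of Gzma to Prf1 TPM overlapped between the genotypes, at 116, 114 and 145 in Rag1Cre-Nfatc1fl/fl and 104, 93.4 and 123 in the control. In all, the 10 genes took 0.0751%, 0.0615% and 0.0806% of gene reads in Rag1Cre-Nfatc1fl/fl, against 0.134%, 0.139% and 0.146% in the control.

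Levels between genes were compared per transcript length, in TPM. In Rag1Cre-Nfatc1fl/fl the order was Gzma (1216 ± 212 TPM), Nkg7 (172 ± 8.00), Il18r1 (27.8 ± 15.0), Tbx21 (24.7 ± 7.39), Stat4 (23.5 ± 6.79), Prf1 (9.73 ± 1.07), Il18rap (9.07 ± 2.20), Eomes (2.97 ± 0.927), Il12rb2 (2.85 ± 0.922) and Ifng (1.58 ± 0.693; SD, n = 3). There the neighbours Il18r1 and Tbx21, Tbx21 and Stat4, Prf1 and Il18rap, Eomes and Il12rb2, and Il12rb2 and Ifng overlapped in range and were not separated. In the control the order was Gzma (2783 ± 193 TPM), Nkg7 (391 ± 36.5), Stat4 (51.9 ± 3.71), Prf1 (26.2 ± 2.93), Il18r1 (10.8 ± 1.47), Tbx21 (10.2 ± 2.35), Il12rb2 (7.73 ± 0.401), Il18rap (4.64 ± 0.674), Eomes (4.55 ± 0.912) and Ifng (1.91 ± 0.529; SD, n = 3). There only Il18r1 with Tbx21, Tbx21 with Il12rb2, and Il18rap with Eomes overlapped. Tbx21 thus stood at the level of Stat4 in Rag1Cre-Nfatc1fl/fl, while Stat4 was clearly above it in the control.

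**Figure D3:**
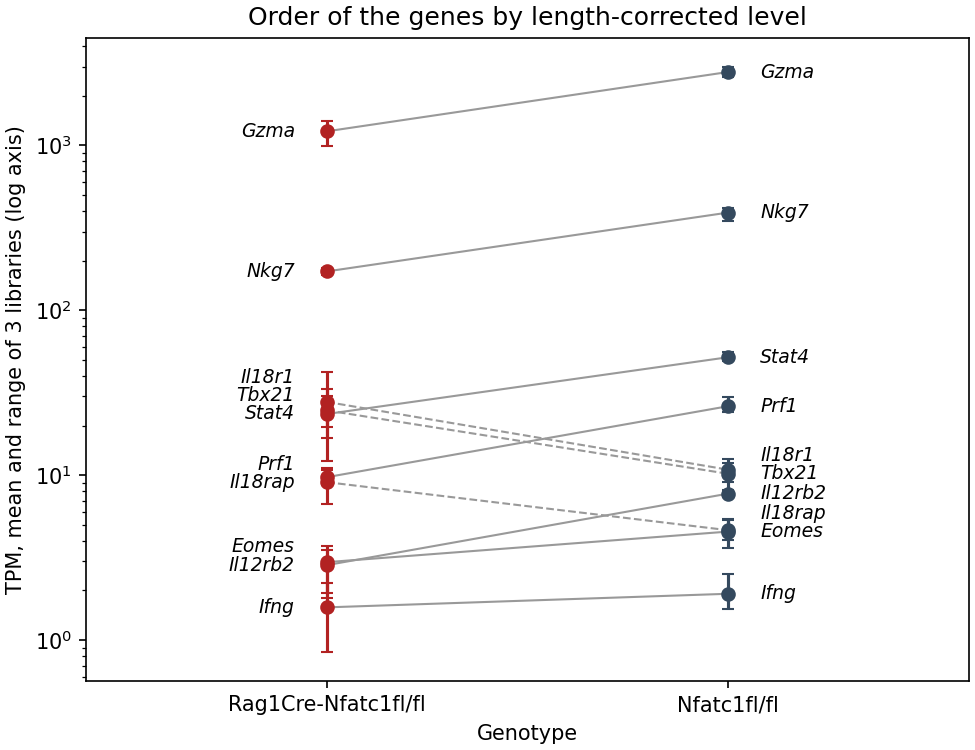
Mean TPM of each gene (log axis) in Rag1Cre-Nfatc1fl/fl (red, left) and Nfatc1fl/fl (blue, right), with the range over 3 libraries; dashed lines join genes with a higher mean in Rag1Cre-Nfatc1fl/fl. Gzma and Nkg7 lead in both genotypes, and Stat4, at 51.9 TPM in the control, falls into the range of Tbx21 and Il18r1 in Rag1Cre-Nfatc1fl/fl.

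Intron reads, which come largely from unspliced RNA, gave another readout of the same libraries. They made up 1.94% to 2.15% of gene reads in Rag1Cre-Nfatc1fl/fl and 2.33% to 2.53% in the control, and the intron fit was scaled on intron reads alone. Of 6158 genes tested on intron reads, 3.78% were called (1.02% lower), and 4 of the 10 genes had enough of them to be tested. Gzma had 23, 16 and 20 intron reads in Rag1Cre-Nfatc1fl/fl, against 57, 70 and 76 in the control. Its intron reads fell by 1.56 on the log2 scale (SE 0.263; edgeR adjusted p = 0.000649) and stayed called without any 1 library. Stat4 had 33, 20 and 22 intron reads in Rag1Cre-Nfatc1fl/fl, against 72, 51 and 72 in the control. Its intron log2FC was -1.15 ± 0.259 (SE; edgeR adjusted p = 0.00793), and it kept the call in 1 of 6 fits without 1 library. Il18r1 introns had a log2FC of 0.91 (adjusted p = 0.0358) and Il12rb2 introns of -0.80 (adjusted p = 0.390), and neither was called. The Il12rb2 intron value rested on single libraries: it was -1.57 without Rag1Cre-Nfatc1fl/fl replicate 2 and -0.51 without replicate 1.

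The promoters of 3 of the 5 genes that fell and of Tbx21 are printed from RefSeq (GRCm38.p6), to show the sequence before the start of genes that moved in opposite directions. Nkg7 and Stat4, which also fell, are not printed. All 10 genes matched an entry of 250 bases before to 50 bases after the start. Stat4 had 2 start sites and Il18r1 had 3, and 1 window was used for each gene. Below are the 250 bases before the start, 5′ to 3′ on the strand of the gene, for Gzma at chr13:113100982-113101231 (minus strand), Prf1 at chr10:61297586-61297835 (plus strand), Il12rb2 at chr6:67376189-67376438 (minus strand) and Tbx21 at chr11:97115332-97115581 (minus strand). Capitals mark matches on either strand to 1 of 5 motifs: GGTGTGA (T-box), TTCNNNGAA (STAT), GGAAAA (NFAT), TGTGGT (RUNX) and TGANTCA (AP-1).
Gzma: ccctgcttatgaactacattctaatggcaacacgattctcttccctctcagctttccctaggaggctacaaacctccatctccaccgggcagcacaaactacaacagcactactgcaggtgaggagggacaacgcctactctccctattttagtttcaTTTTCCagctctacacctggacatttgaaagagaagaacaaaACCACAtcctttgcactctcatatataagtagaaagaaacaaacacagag
Prf1: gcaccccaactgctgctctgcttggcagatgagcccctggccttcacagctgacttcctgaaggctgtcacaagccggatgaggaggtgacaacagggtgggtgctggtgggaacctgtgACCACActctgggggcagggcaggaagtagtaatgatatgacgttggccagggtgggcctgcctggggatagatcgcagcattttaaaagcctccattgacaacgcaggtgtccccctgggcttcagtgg
Il12rb2: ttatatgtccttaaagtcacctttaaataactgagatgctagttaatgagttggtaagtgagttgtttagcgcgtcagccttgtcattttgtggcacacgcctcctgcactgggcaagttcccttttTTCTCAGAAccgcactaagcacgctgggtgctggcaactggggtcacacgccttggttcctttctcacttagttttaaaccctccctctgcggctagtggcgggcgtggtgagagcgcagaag
Tbx21: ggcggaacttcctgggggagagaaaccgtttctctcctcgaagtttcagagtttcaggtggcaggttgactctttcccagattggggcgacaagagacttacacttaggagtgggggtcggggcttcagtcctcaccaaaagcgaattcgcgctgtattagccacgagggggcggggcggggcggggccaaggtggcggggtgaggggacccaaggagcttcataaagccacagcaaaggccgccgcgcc

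In Gzma the NFAT letters began 92 bases and the RUNX letters 50 bases before the start. Prf1 held RUNX letters 130 bases before the start, and Il12rb2 held STAT letters 123 bases before it. Tbx21 held none of the 5 in this window, and neither did Stat4, which fell. Nkg7, which also fell, held T-box letters 13, RUNX letters 83 and STAT letters 220 bases before the start. Over the whole windows, RUNX letters were in 4 of the 10 genes and 16.8% of 32851 promoters, STAT letters in 3 of 10 and 8.30%, NFAT letters in 1 of 10 and 23.4%, T-box letters in 1 of 10 (Nkg7) and 3.98%, and AP-1 letters in 0 of 10 and 7.81%. The motifs were chosen after the data had been seen, none of the matches overlapped another, and a match is a description of the letters, not a bound site.

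Among other transcription factors tied to type 1 responses, Id2 rose and Runx3 fell. The list had 11 tested genes, of which 2 were called higher and 2 lower, the members Tbx21 and Stat4 included, with a median log2FC of 0.00. Id2, an inhibitor of E proteins, had 275, 326 and 319.6 CPM in Rag1Cre-Nfatc1fl/fl, against 60.4, 66.4 and 58.9 CPM in the control, a log2FC of 2.31 ± 0.103 (SE; edgeR adjusted p = 1.83e-05). Runx3, a factor of cytotoxic lineages, had a log2FC of -0.53 (adjusted p = 0.00835), close to the fold limit, and was called in 0 of 6 fits without 1 library.

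In the IL-12 and IL-18 receptor pathways, 3 of 12 tested genes were called higher and 2 lower, with a median log2FC of 0.20. Beside Il18rap, 2 genes that act behind both the IL-18 and the Toll-like receptors rose, the adaptor gene Myd88 (log2FC 0.61, edgeR adjusted p = 0.00195) and the kinase gene Irak4 (0.96, adjusted p = 0.00280). Myd88 kept its call in 3 of 6 fits without 1 library and Irak4 in 2 of 6, both losing it without each control replicate and Irak4 also without Rag1Cre-Nfatc1fl/fl replicate 2. Of 8 genes of ligands and related cytokines, 3 were tested and 0 were called by edgeR, DESeq2 or limma-voom, with an unadjusted edgeR p under 0.05 in 0 of them. Il18 had 1.70, 0.501 and 6.92 CPM in Rag1Cre-Nfatc1fl/fl, against 1.38, 0.396 and 0.490 CPM in the control. Il18bp, its soluble inhibitor, had 1.65, 1.18 and 5.38 CPM in Rag1Cre-Nfatc1fl/fl, against 2.97, 0.748 and 0.757 CPM in the control. Both were highest in Rag1Cre-Nfatc1fl/fl replicate 3, where the macrophage markers summed to 299 CPM, and the part of macrophages in these values was not tested.

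Of 8 tested genes of type 1 cytokines, chemokines and homing receptors, 1 was called higher and 0 lower, with a median log2FC of -0.10. Cxcr3, a chemokine receptor that T-bet is known to induce, had 44.7, 65.8 and 53.6 CPM in Rag1Cre-Nfatc1fl/fl, against 10.2, 17.4 and 7.35 CPM in the control, a log2FC of 2.23 ± 0.297 (SE; edgeR adjusted p = 0.00181). The call was lost without control replicate 1 (adjusted p = 0.0146). Ccl5, a chemokine of effector T cells, had a log2FC of -0.72 (adjusted p = 0.0407). Of 11 tested genes of IFN-γ reception and response, 1 was called lower and 0 higher, with a median of -0.15. Ifngr1, the ligand-binding chain of the IFN-γ receptor, had 177, 159 and 169 CPM in Rag1Cre-Nfatc1fl/fl, against 374, 365 and 373 CPM in the control, and fell by 1.14 on the log2 scale (adjusted p = 0.000102). Jak1, a kinase bound to this receptor, had a log2FC of -0.15 and was not called.

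Other genes of the granule did not fall with them. Of 13 tested genes of granule contents, 3 were called higher and 3 lower, with a median log2FC of 0.34, and the 3 lower were Gzma, Prf1 and Nkg7. Srgn, the proteoglycan that packs granzymes, averaged 656 ± 94.7 CPM in Rag1Cre-Nfatc1fl/fl and 314 ± 11.9 CPM in the control (SD, n = 3 each), a log2FC of 1.06 (edgeR adjusted p = 0.000794). Ctsw, a cathepsin of cytotoxic lymphocytes, averaged 190.3 ± 14.0 CPM in Rag1Cre-Nfatc1fl/fl and 99.1 ± 8.10 CPM in the control (SD, n = 3 each), a log2FC of 0.94 (edgeR adjusted p = 0.000632). Cst7, an inhibitor of cathepsins, had a log2FC of 1.18 (adjusted p = 0.000829). All 3 stayed called in each fit without 1 library. Gzmb, named after its values were seen, had 16.1, 22.9 and 18.6 CPM in Rag1Cre-Nfatc1fl/fl, against 11.2, 15.8 and 5.79 CPM in the control, without overlap but not called (log2FC 0.81, adjusted p = 0.105). The ratio of Gzma to Gzmb TPM was 42.9, 24.5 and 51.9 in Rag1Cre-Nfatc1fl/fl, against 129, 91.4 and 275 in the control (two-sided exact permutation p = 0.1).

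Of 8 tested genes of granule release, 0 were called by edgeR, DESeq2 or limma-voom, with a median log2FC of 0.05 and an unadjusted edgeR p under 0.05 in 3 of them. Rab27a, which docks granules, and Unc13d, which primes them, had log2FCs of -0.22 and 0.05. Of 4 genes of death ligands and receptors, Fas was called higher (log2FC 0.93, edgeR adjusted p = 0.00229, lost without each control replicate), and Tnfsf10, which encodes TRAIL, had a log2FC of 0.52 (adjusted p = 0.0183).

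**Figure D4:**
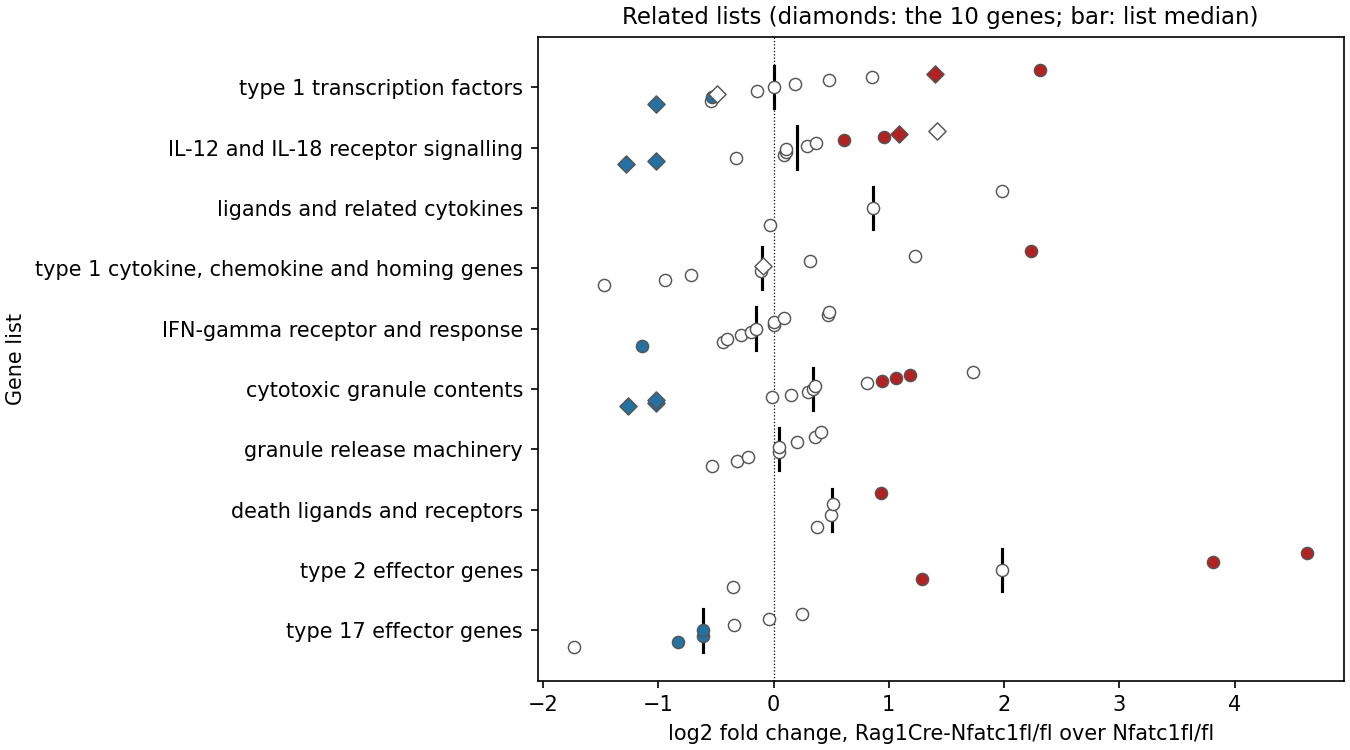
Log2FC, Rag1Cre-Nfatc1fl/fl over Nfatc1fl/fl, of the tested genes in each related list (red: called higher, blue: called lower, white: not called), with the list median as a bar and the 10 genes as diamonds. In granule contents the called genes lie on both sides of 0 (3 higher and 3 lower), and in type 2 effector genes all 3 called genes lie above 0.

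For comparison, 3 of 5 tested type 2 effector genes were called higher and 3 of 7 tested type 17 effector genes lower. Il13 and Il4, cytokines of type 2 cells, had log2FCs of 4.63 (edgeR adjusted p = 2.99e-05) and 3.81 (adjusted p = 9.31e-05), and Ccr4, a chemokine receptor of type 2 cells, of 1.29 (adjusted p = 0.000499). Rora and Il1r1, genes of IL-17-producing cells, each had a log2FC of -0.61 (adjusted p = 0.00913 and 0.00834). Each kept its call in 1 of 6 fits without 1 library. Over all 68 tested genes of the lists that were not among the 10, 11 were called higher and 5 lower. Of all tested genes, 6.47% were called higher and 3.51% lower. Without 1 library these counts lay between 7 and 14 higher and between 1 and 8 lower.

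The genes beside the 10 were examined, taking the 2 nearest tested genes on each side. Of 36 such genes, 3 were called higher and 3 lower, beside 6.47% and 3.51% of all tested genes. Tbkbp1, 20.8 kb from Tbx21 and encoding a partner of the kinase TBK1, averaged 27.4 ± 3.94 CPM in Rag1Cre-Nfatc1fl/fl and 2.31 ± 0.666 CPM in the control (SD, n = 3 each), a log2FC of 3.56 (edgeR adjusted p = 5.08e-05). Il1rl2, a receptor gene of the same cluster as Il18r1 and Il18rap on chromosome 1, had a log2FC of 1.58 (adjusted p = 0.000576). Both stayed called in each fit without 1 library. Cmc1 beside Eomes (0.55, adjusted p = 0.00363), Gadd45a beside Il12rb2 (-0.77, adjusted p = 0.00850), Mdm1 beside Ifng (-0.71, adjusted p = 0.00500) and Esm1 beside Gzma (-1.88, adjusted p = 0.00615) were called but lost the call without each control replicate and without Rag1Cre-Nfatc1fl/fl replicate 2, with adjusted p up to 0.0267, 0.0434, 0.0331 and 0.0303. Cmc1 and Esm1 kept the call in 2 of 6 fits without 1 library, and Gadd45a and Mdm1 in 1 of 6.

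The genes whose pattern over the 6 libraries was most like that of Tbx21 or of Gzma were found among 9472 candidates by the root mean square difference of mean-centred log2 CPM. For Tbx21 they were Lrrk1 (0.121), Cst7 (0.142) and Bmp7 (0.152). For Gzma they were BC035044 (0.0267), Fam241a (0.0536) and Zfp385a (0.0748). BC035044 had 14.3, 11.2 and 19.7 CPM in Rag1Cre-Nfatc1fl/fl, against 29.1, 29.4 and 31.7 CPM in the control. Like Gzma, it was highest within Rag1Cre-Nfatc1fl/fl in replicate 3, still below the control. This likeness follows from how the gene was picked.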

How the data were processed

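Unstranded poly(A) libraries of γδ thymocytes, enriched by magnetic selection, were sequenced from 3 Rag1Cre-Nfatc1fl/fl and 3 Nfatc1fl/fl samples, grouped by their labels. The study's methods state that the authors trimmed reads with cutadapt, aligned with STAR and counted with featureCounts. The submitters' processing notes name GRCm38. The deposited tables hold read counts per gene (total, unique, exon, intron and exon-exon), but in another layout than featureCounts writes, by a program not given in the sources used here. The labels and the methods differ in the RNA kit and input stated. Because the deposited TPM uses decimal commas, TPM was computed again from exon reads and lengths, and matched it to within 5e-07.

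For total gene reads, edgeR 4.0.16 (R 4.3.3) was run with TMM, filterByExpr and genotype as its sole factor, and p-values were adjusted over 13185 genes by Benjamini-Hochberg. The thresholds were those of the study. The fit was tested on simulated counts. CPM values are TMM-scaled. Library size alone in place of TMM shifted the median log2 fold change from -0.0069 to -0.1073. Intervals are 95% intervals of the fit. The alternatives were RLE, upper-quartile and library-size scaling, no filter, DESeq2 1.42.0, limma-voom (limma 3.58.1), each library left out, a replicate block, unique reads, exon reads and a looser threshold. Promoters came from a RefSeq table of GRCm38.p6 and were searched on both strands.

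The 10 genes and all lists were chosen with earlier results of these data known, so no list is independent support. Named were all 10 genes, up to 4 called genes of each list by adjusted p (with fewer than 2 called, also the 2 with the highest mean CPM), called neighbours, and the 3 genes most like Tbx21 and Gzma among tested genes of at least 5 CPM on average, predicted genes and receptor segments left out, with an offset of 0.5 CPM. Some genes that this rule names are not reported here. Ratios, Gzmb and Il12rb1 were chosen after their values were seen. The marker lists of CD8 T cells, double-positive thymocytes, dendritic cells and B cells were also summed: in Rag1Cre-Nfatc1fl/fl and in the control they lay at 994 to 1550 and 1267 to 1289, at 170 to 401 and 381 to 400, at 3.64 to 6.60 and 2.67 to 3.79, and at 13.9 to 19.2 and 24.9 to 28.0 CPM.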

Additional observations from a re-analysis of the deposited data

How the results depend on the processing

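Of 160 refits of the 10 genes' log2 fold changes, 137 kept direction and call, 16 lost the call, 5 gained it and 2 changed sign. Il18r1 gained it at 1.42 with no filter, with DESeq2 and at an adjusted p under 0.05 with no fold limit. Both sign changes were Ifng, at 0.17 without Rag1Cre-Nfatc1fl/fl replicate 3 and 0.14 without control replicate 2. All 16 losses came from fits that left out 1 library, but without Rag1Cre-Nfatc1fl/fl replicate 3, 8 of the 10 genes were called. The part of the lower number of samples in the fits without 1 library was not tested. In those fits the log2 fold changes ranged from 1.18 to 1.54 for Tbx21, -1.17 to -0.89 for Stat4, -1.39 to -1.09 for Il12rb2, -0.43 to 0.17 for Ifng, 1.07 to 1.73 for Il18r1, 1.0 to 1.21 for Il18rap, -1.25 to -0.85 for Gzma, -1.39 to -0.96 for introns of Stat4, -1.57 to -0.51 for introns of Il12rb2 and 0.69 to 1.10 for introns of Il18r1. Counts without 1 library ranged from 380 to 1131 genes higher and 100 to 665 lower over all genes, 0 to 3 higher and 2 to 5 lower among the 10, and 7 to 14 higher and 1 to 8 lower in the related lists. At an adjusted p under 0.05 with no fold limit, 1739 genes were higher and 1334 lower, with 17 higher and 12 lower in the related lists. DESeq2 called 723 genes lower, against 463 by edgeR. Of the other counts by list and shares by promoter window, 48 moved by more than the limit set for them.

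The labels do not say whether libraries with the same replicate number were paired. Deviations of same-numbered libraries correlated at 0.026, 0.183 and 0.005, and those of other pairs at -0.15 to 0.094. So few correlations cannot decide whether the libraries were paired. With the replicate block, 778 genes were higher and 393 lower, Il18r1 was called at 1.33 (adjusted p = 0.00419) and 2 genes of the related lists were lower, against 5 without the block. Ifng had few reads, 10 to 27 a library.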
